A study of Mus musculus with 12 samples.

Results

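The lysosome and granule acidification genes of basophils were followed across 4 populations of the basophil lineage by bulk RNA sequencing. The set held 37 of the 32227 genes in the count table and was taken by gene symbol. It comprised 5 membrane (V0) and 7 catalytic (V1) subunits of the vacuolar proton pump, 2 accessory proteins of the pump, 9 lysosomal proteases (the cathepsins and legumain), 8 glycosidases and lipid-handling proteins, 4 lysosomal membrane proteins, the transcription factor Tfeb and the granule proteoglycan Srgn. Of the 37 genes, 36 had enough reads to be tested, and the protease gene Lgmn, at 0.243 to 3.58 CPM in the 12 libraries, did not. CPM is a gene's count per 1000000 counts of its library, whose total was first corrected for composition.

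All cells came from C57BL/6J wild-type mice, and no treatment is named for them. No age of the animals was found in the labels or methods. CD34+ basophil progenitors (BaPs) were CLEC12A-hi, CD34- pre-basophils were CLEC12A-hi CD9-lo, and mature basophils were CLEC12A-lo CD9-hi. BaPs, pre-basophils and mature basophils were sorted from the bone marrow (BM), mature basophils also from the spleen, and each population was represented by 3 libraries. The cells of each library were pooled from several animals, so p-values measure the spread between pools rather than between single animals.

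Lysosomes degrade proteins, lipids and sugar chains at a low pH that the vacuolar proton pump maintains by coupling ATP hydrolysis in its V1 sector to proton transport through its V0 sector. Secretory granules of basophils and mast cells are acidified by the same pump and share proteases and membrane proteins with lysosomes. Serglycin, the core protein encoded by Srgn, carries negatively charged sugar chains that hold histamine and proteases inside such granules. Tfeb is a transcription factor that binds E-box sequences (CACGTG) in promoters of many lysosomal genes.

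Library totals ran from 3596108 to 8151030 counts. The 9 markers of basophils summed to 25000 to 69700 CPM in BaPs and pre-basophils and to 5450 to 13500 CPM in mature basophils. From pre-basophils to BM mature basophils, 5 of the 9 were called lower and 4 were not called, against 16.3% of all tested genes called lower. The paper's single-cell data also gave lower Fcer1a, Mcpt8 and Prss34 in mature basophils than in pre-basophils. BaP replicate 3 stood apart from the other BaP libraries, with 3.53% mitochondrial counts against 1.75% and 1.82%, and with 25000 CPM of basophil markers against 62700 and 67700 CPM. Its erythroid markers summed to 2410 CPM, against 7.17 and 6.84 CPM in BaP replicates 1 and 2. Its neutrophil markers summed to 2030 CPM, against 125 and 651 CPM. The calls and the median of the set in the comparison of BaPs with pre-basophils, and the ratios, are therefore also given without it. In bulk RNA, fewer cells of a type and less RNA per cell cannot be told apart.

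Among the 36 tested genes, 24 differed among the 4 populations in edgeR's quasi-likelihood F test at an adjusted p under 0.05, and 57.8% of all 15083 tested genes did so. The acidification genes changed in both directions, and most steps between neighbouring populations were small. From pre-basophils to BM mature basophils all 36 genes moved by less than 1 on the log2 scale. Ctsd was called higher at each of the 3 steps from BaP to spleen mature basophils, and Atp6v0b at both steps within the bone marrow. Atp6v1d was called lower at the step to BM mature basophils and again at the step to the spleen. Of the 36 tested genes of the set, 20 were called at none of the 3 steps. The share of all 15083 tested genes called at none was not computed. At the single steps, in order from BaP to spleen, 7.08%, 27.3% and 7.83% of all tested genes were called.

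**Figure D1:**
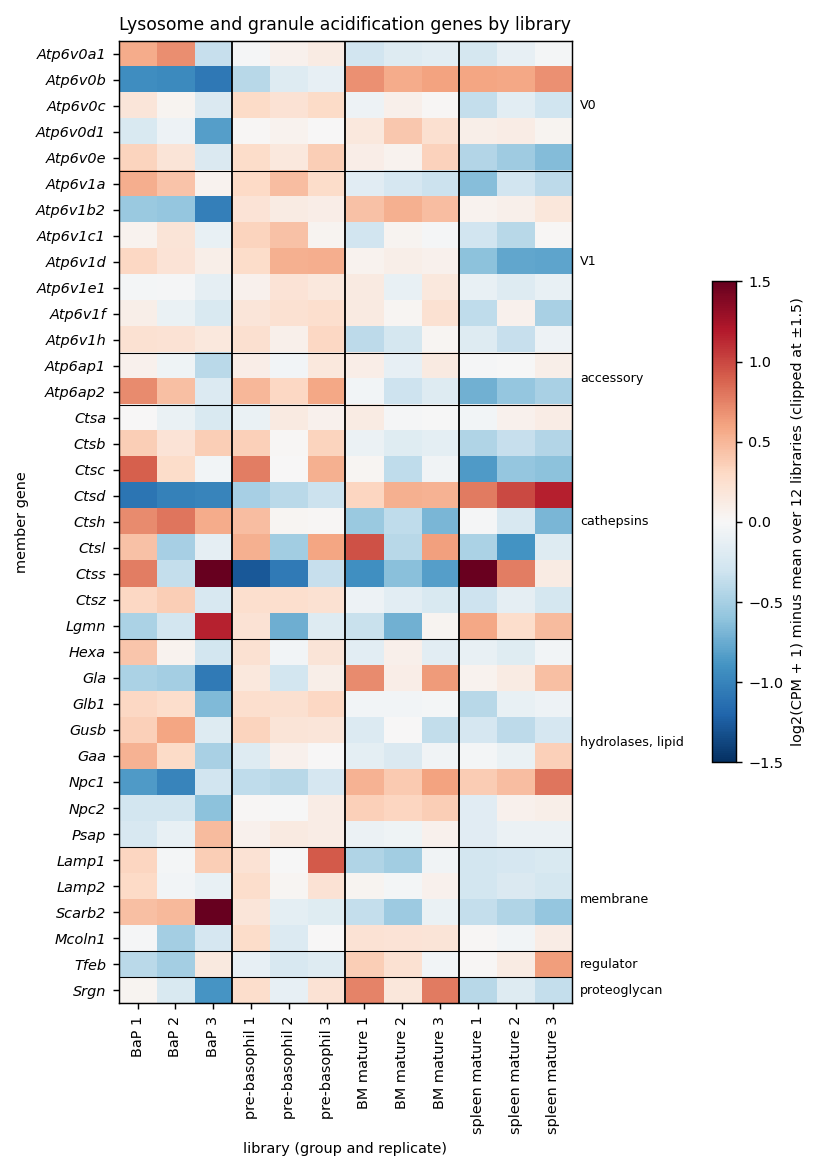
Expression of the 37 genes in each of the 12 libraries, as log2(CPM + 1) minus the gene's mean over the 12 libraries, with colours clipped at 1.5 in either direction. Rows are grouped by role and columns by population. The rows of Ctsd and Atp6v0b run from blue in BaPs to red in mature basophils, whereas Atp6v1a, Ctsb and Ctsh run the other way, and BaP replicate 3 differs from BaP replicates 1 and 2 in many rows.

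Per kilobase of the longest annotated transcript, Srgn was by far the most abundant of the 37 genes, at a mean of 2538 CPM per kb over the 12 libraries. Ctsd followed at 392 CPM per kb, Atp6v0b at 262 and the V1 subunit gene Atp6v1f at 148. Npc2 reached 76.8, Atp6ap2 53.9, Lamp1 33.8, Mcoln1 9.56 and Tfeb 8.002 CPM per kb. The least abundant were Ctss at 2.38, Scarb2 at 2.02 and Lgmn at 0.613 CPM per kb. Srgn lies on the minus strand of chromosome 10 (chr10:62493833-62527451, GRCm38), Ctsd on that of chromosome 7 (chr7:142375911-142388038) and Atp6v0b on that of chromosome 4 (chr4:117884326-117887333). Srgn alone took a mean of 0.318% to 0.541% of the counts of a population, and the other 36 genes together took 0.325% to 0.393% of a library.

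The promoter sequences of the set were examined for the E-box bound by Tfeb and its relatives. RefSeq promoter windows (GRCm38.p6, from 250 bases before to 50 bases after a gene's start) were at hand for 31 of the 37 genes. The E-box CACGTG, which reads the same on both strands, was present in the windows of 13 of the 31 genes (41.9%), against 8.09% of 27025 genes with a window and 11.4% of 9919 tested genes with a window. The longer form GTCACGTG, searched on both strands and containing the E-box, was present in 9 of them (29.0%), against 2.55% of all genes with a window and 4.70% of the tested ones. TCACGTGA, which overlaps both, was present in 7 (22.6%), against 1.12% and 2.13%. The full 10-base CLEAR consensus, a palindrome around the same E-box, was present in 0 of the 31, against 0.370% and 0.776%. These shares are descriptions of letters in a window. The stretches printed here belong to genes whose levels are described below, with the E-box in capitals. Each holds up to 150 bases of the window that lie before the start and outside annotated exons. The windows of all but Ctsd therefore reach further upstream than what is printed. Those of Ctsd and Mcoln1 each hold a further E-box that is not printed, 98 and 45 bases before the start.
Ctsd (chr7:142388039-142388077, minus strand, ending 211 bases before the start): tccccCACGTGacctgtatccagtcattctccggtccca
Atp6v0b (chr4:117887334-117887483, minus strand, ending 4 bases before the start): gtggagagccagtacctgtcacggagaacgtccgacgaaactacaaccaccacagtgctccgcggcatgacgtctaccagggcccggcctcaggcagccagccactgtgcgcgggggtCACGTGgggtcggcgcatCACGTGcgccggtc
Lamp1 (chr8:13159011-13159160, plus strand, ending at the start): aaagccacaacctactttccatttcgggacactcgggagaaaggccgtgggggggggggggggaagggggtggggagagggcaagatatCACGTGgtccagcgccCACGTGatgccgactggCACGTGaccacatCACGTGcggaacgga
Atp6v1a (chr16:44139306-44139455, minus strand, ending 46 bases before the start): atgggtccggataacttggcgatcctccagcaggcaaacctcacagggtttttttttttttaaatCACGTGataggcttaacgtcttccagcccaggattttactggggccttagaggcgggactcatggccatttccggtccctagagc
Mcoln1 (chr8:3500307-3500456, plus strand, ending 62 bases before the start): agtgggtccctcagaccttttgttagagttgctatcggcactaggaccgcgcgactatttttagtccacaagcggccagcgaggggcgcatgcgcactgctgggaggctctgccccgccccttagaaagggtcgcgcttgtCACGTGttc

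From pre-basophils to BM mature basophils, genes with an E-box in the window were called in both directions. Of the 12 tested genes with an E-box, 2 were called higher (Atp6v0b and Ctsd) and 2 lower (Atp6v1a and Lamp1). Of the 18 tested genes with a window but no E-box, 0 were called higher and 2 lower, and of all tested genes 11.0% were called higher and 16.3% lower. Npc1 (higher) and Atp6v1h, Ctsb and Ctsh (lower) were also called at this step, but no window was at hand for them. From BaPs to pre-basophils, 2 of the 12 were called higher (again Atp6v0b and Ctsd) and 0 lower, against 1 higher and 2 lower of the 18. Of all tested genes 4.29% were called higher and 2.79% lower, and Atp6v1b2, called higher, had no window at hand. From BM to spleen mature basophils, 1 of the 12 was called higher (Ctsd) and 1 lower (Atp6v0e), against 0 and 2 of the 18. Of all tested genes 3.16% were called higher and 4.67% lower at that step. The printed stretch of Lamp1, which fell, held 4 E-boxes, and that of Atp6v0b, which rose, held 2. Tfeb itself, on chromosome 17, was expressed at a low level throughout. The BaP libraries held 13.6, 12.5 and 20.4 CPM and the pre-basophil libraries 16.8, 15.3 and 15.8 CPM. The BM mature libraries held 23.9, 21.5 and 17.8 CPM and the spleen libraries 18.6, 19.97 and 28.7 CPM. Each BM mature library lay above each pre-basophil library, as for 21.5% of all tested genes. The log2 fold change of 0.39 ± 0.22 (SE) did not pass (edgeR adjusted p = 0.218). Tfeb was called in none of the 3 pairwise comparisons. Mcoln1, which encodes a lysosomal calcium channel (TRPML1), was also called in none and ran from 18.9 to 33.3 CPM over the 12 libraries.

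From BaPs to pre-basophils, Atp6v0b, Atp6v1b2, Ctsd and Npc2 were higher and Scarb2 and Ctss lower. These 6 of 36 genes passed an adjusted p of 0.05 in edgeR, and 7.08% of all tested genes did so (4.29% higher and 2.79% lower). The median log2 fold change of the 36 genes was 0.18, against -0.02 for all tested genes, and 29 of the 36 had a positive value (80.6%, against 47.8% of all tested genes). Without BaP replicate 3, the median of the set was 0.11, and 21 of the 36 had a positive value (58.3%, against 50.8% of all tested genes). The comparison sets separately sorted CD34+ and CD34- cells, both CLEC12A-hi, against each other.

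Among the membrane-sector genes, Atp6v0b, which encodes the c'' subunit of the proton-carrying ring, showed the clearest difference. It stood at 123, 122 and 112 CPM in the BaP libraries and at 178, 207 and 217 CPM in the pre-basophil libraries. All pre-basophil libraries exceeded all BaP libraries. The log2 fold change was 0.76 ± 0.11 (SE, n = 3 against 3, 1.69-fold, edgeR adjusted p = 0.00126). The remaining V0 genes, Atp6v0a1, Atp6v0c, Atp6v0d1 and Atp6v0e, were not called, with log2 values from -0.31 to 0.38.

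In the catalytic sector, Atp6v1b2, which encodes the widely expressed B subunit, rose from 94.6, 93.1 and 68.0 CPM in BaPs to 161, 152 and 150 CPM in the pre-basophil libraries. The populations did not overlap, and the log2 fold change was 0.86 ± 0.13 (SE, 1.82-fold, edgeR adjusted p = 0.00152). Its partner in the catalytic ring, Atp6v1a, which encodes the ATP-hydrolysing A subunit, was at 44.9, 41.3 and 31.8 CPM in the BaP libraries and at 37.7, 42.6 and 37.1 CPM in the pre-basophil libraries. The libraries of Atp6v1a overlapped, and the gene was not called. None of the other 5 V1 genes was called in this comparison.

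Ctsd, the aspartic protease cathepsin D, was at 338, 357 and 365 CPM in the BaP libraries and at 515, 548 and 581 CPM in the pre-basophil libraries. Its libraries did not overlap, and the log2 fold change was 0.63 ± 0.12 (SE, 1.55-fold, edgeR adjusted p = 0.00687). Npc2, a soluble carrier that hands cholesterol to Npc1 inside the lysosome, was at 205, 206 and 162 CPM in the BaP libraries and at 253, 248 and 269 CPM in the pre-basophil libraries. Npc2 rose by 0.43 ± 0.12 on the log2 scale (edgeR adjusted p = 0.0428), close to the threshold. It was not called with DESeq2 size factors (adjusted p = 0.0594), scaling that leaves out changed genes in repeated rounds (adjusted p = 0.0793), library size alone (0.24, adjusted p = 0.131) or a fit of only these populations (adjusted p = 0.114). Gla, which encodes alpha-galactosidase A, was at 63.3, 62.0 and 41.9 CPM in the BaP libraries and at 99.2, 73.3 and 94.5 CPM in the pre-basophil libraries, again without overlap. Its log2 fold change of 0.69 ± 0.20 (SE) just missed (edgeR adjusted p = 0.0548) and passed with the replicate number as a block (adjusted p = 0.0465). Gla passed in 4 of the 13 alternative settings. Without BaP replicate 3, which held its lowest value, the change was 0.50 (edgeR adjusted p = 0.0773).

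Scarb2 encodes LIMP-2, the membrane receptor that carries glucocerebrosidase to the lysosome. It was at 11.9, 12.3 and 27.6 CPM in the BaP libraries and at 9.78, 7.55 and 7.36 CPM in the pre-basophil libraries, with a log2 fold change of -1.11 ± 0.30 (SE, edgeR adjusted p = 0.0426). The highest value came from BaP replicate 3. Ctss, the cysteine protease cathepsin S of antigen-presenting cells, was at 4.30, 1.41 and 13.9 CPM in the BaP libraries and at 0.280, 0.487 and 1.44 CPM in the pre-basophil libraries (log2 fold change -3.05 ± 0.78, edgeR adjusted p = 0.0322). The total was 12 reads in pre-basophils against 168 in BaPs, so the fitted size depends on the prior count. Most of these reads were in BaP replicate 3, whose monocyte and dendritic cell markers summed to 338 CPM against 42.0 and 45.3 CPM in BaP replicates 1 and 2, and whose macrophage markers summed to 67.2 CPM against 34.4 and 25.0 CPM. Its B cell markers summed to 204 CPM against 41.3 and 41.5 CPM, and its T and NK cell markers to 1030 CPM against 448 and 343 CPM. The part of such cells in the values of Ctss and Scarb2 was not tested.

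Without BaP replicate 3, Atp6v0b, Atp6v1b2 and Ctsd were still called, with log2 fold changes of 0.70, 0.71 and 0.65. Scarb2 (-0.58, adjusted p = 0.123), Ctss (-1.74, adjusted p = 0.117) and Npc2 (0.31, adjusted p = 0.0546) were no longer called without it, and Npc1 (0.60, adjusted p = 0.0306) and Atp6v0a1 (-0.59, adjusted p = 0.00152) were. The same 3 calls were lost when any of the 3 pre-basophil libraries was left out, where Npc2 ran from 0.40 to 0.46 and Scarb2 from -1.24 to -1.03 on the log2 scale. Ctss was then at -2.73, -2.81 and -4.09 without pre-basophil replicates 1, 2 and 3 (adjusted p from 0.0699 to 0.131).

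**Figure D2:**
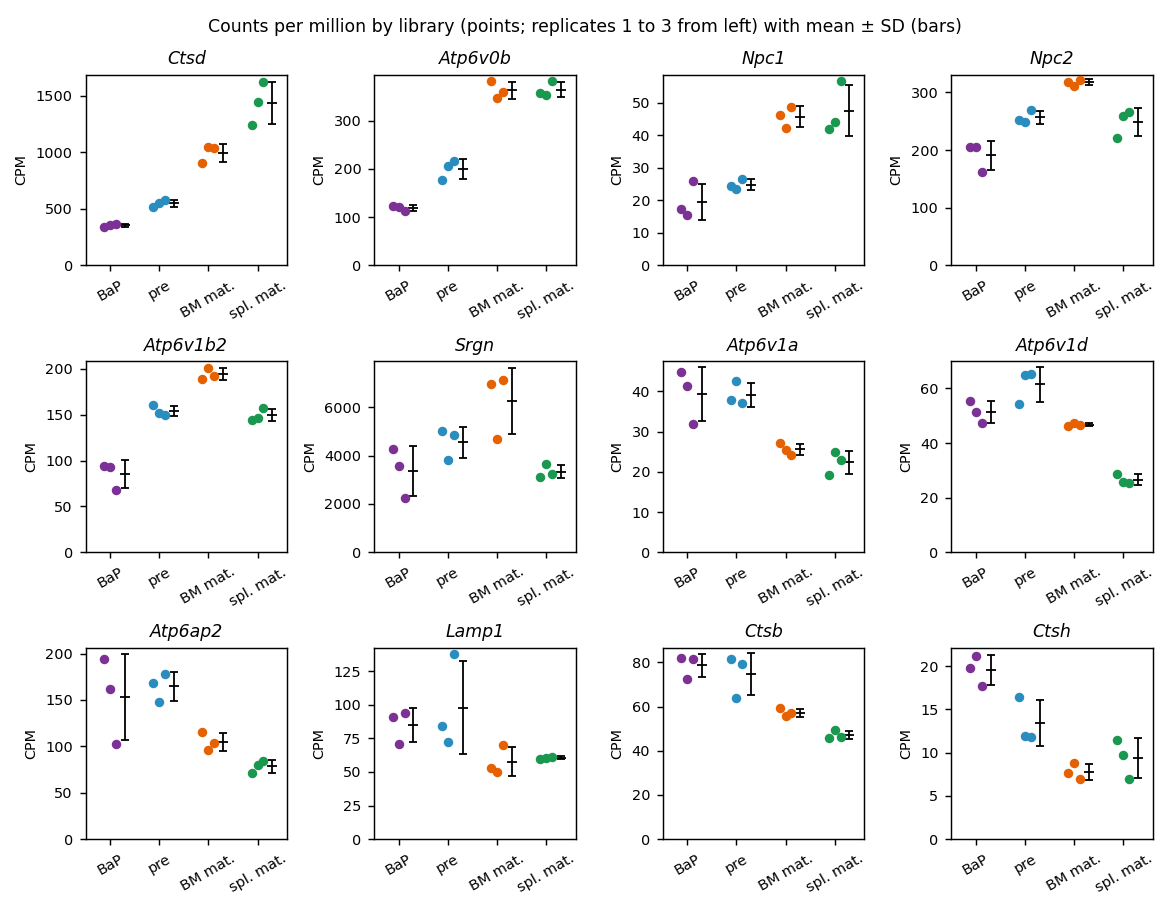
CPM by library for 12 of the genes in the 4 populations (points, replicates 1 to 3 from left to right) with the mean ± SD (bars, n = 3). Each axis starts at 0. Ctsd climbs at every step, Atp6v0b and Npc1 overlap between BM and spleen mature basophils, Atp6v1a, Ctsb and Ctsh are lower in mature basophils than in BaPs, and Srgn is highest in BM mature basophils.

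From pre-basophils to BM mature basophils, Ctsd, Atp6v0b and Npc1 rose while Atp6v1a, Atp6v1d, Atp6v1h, Atp6ap2, Ctsb, Ctsh and Lamp1 fell. These were 10 of 36 genes, 3 higher (8.33%) and 7 lower (19.4%), and 27.3% of all tested genes passed in this comparison (11.0% higher and 16.3% lower). The share called in the set was thus close to that among all genes. The BM mature libraries lay wholly above the pre-basophil libraries for 7 of the 36 genes and wholly below for 13. Of all tested genes, 21.5% and 25.5% did so. The median log2 fold change was -0.12 in the set and 0.00 over all tested genes. When counts were scaled by library size alone, the median of all tested genes moved to -0.22 and 19 of the 36 genes were called, 3 higher and 16 lower.

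Ctsd was at 905, 1046 and 1043 CPM in the BM mature libraries, against 515 to 581 CPM in the pre-basophil libraries. It rose 1.82-fold (log2 fold change 0.86 ± 0.12, SE, edgeR adjusted p = 0.000136), and the libraries did not overlap. Atp6v0b was at 382, 348 and 359 CPM, against 178 to 217 CPM in the pre-basophil libraries, and rose 1.81-fold (0.86 ± 0.11, edgeR adjusted p = 6.55e-05). Npc1, the membrane protein that exports cholesterol from the lysosome and is defective in Niemann-Pick type C disease, was at 24.3, 23.6 and 26.7 CPM in the pre-basophil libraries and at 46.2, 42.3 and 48.9 CPM in the BM mature libraries. It rose 1.84-fold (0.88 ± 0.18, edgeR adjusted p = 0.00294).

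These 3 genes, together with Atp6v1a among those that fell, passed under all 13 alternative settings run for this comparison. Exons of Npc1 overlap those of Rmc1 on the opposite strand, whose count over the 12 libraries was 165% of that of Npc1, and exons of Ctsd overlap those of Gm49369 on the same strand, at 8.95% of the count of Ctsd. Other genes of the set had such neighbours too, among them Ctsz (Nelfcd, opposite strand, 25%), Glb1 (Tmppe, same strand, 15.9%) and Ctsb (Fdft1, opposite strand, 12.7%). The sources used here do not say whether counting used the strand, so reads of such neighbours cannot be told apart.

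Of the pump genes called lower, 3 encode V1 subunits and 1 an accessory protein, and 0 encode V0 subunits. The V0 genes Atp6v0a1 (-0.27) and Atp6v0c (-0.25) were also lower in each BM mature library. They were not called in the main fit but were with library size alone. Atp6v1a was at 27.1, 25.5 and 24.2 CPM in the BM mature libraries, below each of the pre-basophil libraries (37.1 to 42.6 CPM), and fell by 0.62 ± 0.15 on the log2 scale (edgeR adjusted p = 0.00911). Atp6v1d, which encodes a subunit of the central rotor stalk, was at 54.2, 64.8 and 65.4 CPM in the pre-basophil libraries and at 46.2, 47.3 and 46.6 CPM in the BM mature libraries (-0.40 ± 0.12, edgeR adjusted p = 0.0229). Atp6v1h, a regulatory subunit that holds V1 on V0, was at 36.9, 32.9 and 38.9 CPM in the pre-basophil libraries and at 23.6, 25.8 and 31.8 CPM in the BM mature libraries (-0.41 ± 0.14, edgeR adjusted p = 0.0414). The libraries of these 3 genes did not overlap, and 25.5% of all tested genes were lower without overlap at this step.

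Atp6v1b2 did not follow them. It was at 189, 202 and 192 CPM in the BM mature libraries, above each pre-basophil library, without passing the test (0.33 ± 0.12, edgeR adjusted p = 0.0611). The summed level of the 7 V1 genes was 536 ± 8.81 CPM (SD, n = 3) in pre-basophils and 519 ± 13.7 CPM in the BM mature libraries, while the sum of the 5 V0 genes went from 789 ± 29.9 to 905 ± 13.2 CPM. Atp6v0b made up that increase, since the other 4 V0 genes summed to 589 ± 15.9 CPM in pre-basophils and 542 ± 27.6 CPM in the BM mature libraries, and the median log2 value of the 5 V0 genes was -0.10. Of the accessory genes, Atp6ap2, the (pro)renin receptor needed for pump assembly, was at 168, 148 and 178 CPM in the pre-basophil libraries and at 115, 95.7 and 104 CPM in the BM mature libraries. It fell by 0.65 ± 0.19 on the log2 scale (edgeR adjusted p = 0.0184). Atp6ap1, the other accessory gene, ranged from 74.8 to 110 CPM over all 12 libraries and was called in no comparison.

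Within the proteases, Ctsd rose while the cysteine cathepsins Ctsb and Ctsh fell. Ctsb, cathepsin B, was at 81.3, 64.0 and 79.5 CPM in the pre-basophil libraries and at 59.2, 55.6 and 57.1 CPM in the BM mature libraries (-0.39 ± 0.12, edgeR adjusted p = 0.0260). Ctsh, an aminopeptidase, was at 16.5, 11.9 and 11.8 CPM in the pre-basophil libraries and at 7.64, 8.76 and 6.93 CPM in the BM mature libraries (-0.78 ± 0.23, edgeR adjusted p = 0.0215). Neither gene overlapped between the populations. Ctsc, the dipeptidyl peptidase that activates granule serine proteases, had log2 -0.60 ± 0.23 (edgeR adjusted p = 0.0689), and Ctsz had -0.40 ± 0.15 (adjusted p = 0.0561). With the replicate number as a block, Ctsc (adjusted p = 0.0439) and Ctsz (adjusted p = 0.0382) passed as well, and the total called was 12. Ctsa, Ctsl (log2 0.20) and Ctss (-0.05) were not called.

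Lamp1, a heavily glycosylated protein of the lysosomal membrane that is used as a surface marker of degranulation, was at 84.1, 72.1 and 138 CPM in the pre-basophil libraries and at 52.8, 50.1 and 70.0 CPM in the BM mature libraries. It fell by 0.77 ± 0.21 on the log2 scale (edgeR adjusted p = 0.0162). Pre-basophil replicate 3 held the highest value and also 1820 CPM of neutrophil markers, against 352 and 841 CPM in pre-basophil replicates 1 and 2. Without it, Lamp1 fell by 0.43 on the log2 scale and was not called (adjusted p = 0.0939). The part of neutrophils in its level was not tested. Lamp2, its close relative, was not called in any comparison.

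The smaller decreases depended on individual libraries, and some on the method. Lamp1 was also lost without BM mature replicate 1 (-0.71, adjusted p = 0.0645) or BM mature replicate 2 (-0.68, adjusted p = 0.0718). Atp6ap2 was lost when pre-basophil replicate 1 or 3, or replicate 2 or 3 of the BM mature population, was left out (-0.64 to -0.59, adjusted p from 0.0591 to 0.0743). Ctsh was lost when pre-basophil replicate 1, or replicate 1 or 3 of the BM mature population, was left out (-0.77 to -0.61, adjusted p from 0.0617 to 0.107). Atp6v1d was lost without any of the other 5 libraries than pre-basophil replicate 1 (-0.42 to -0.35, adjusted p from 0.0567 to 0.0862), with the DESeq2 test (-0.38, adjusted p = 0.0542) and with no filter on low counts (-0.40, adjusted p = 0.101). Ctsb was lost without any library but pre-basophil replicate 2 (-0.41 to -0.33, adjusted p from 0.0564 to 0.116) and with no filter on low counts. Atp6v1h was lost when replicate 1 or 3 of the pre-basophils or replicate 1 or 2 of the BM mature population was left out (-0.40 to -0.33, adjusted p from 0.111 to 0.159), and with DESeq2 size factors, the DESeq2 test or no filter on low counts. Log2 fold changes of these 6 genes stayed below 0 in every setting.

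**Figure D3:**
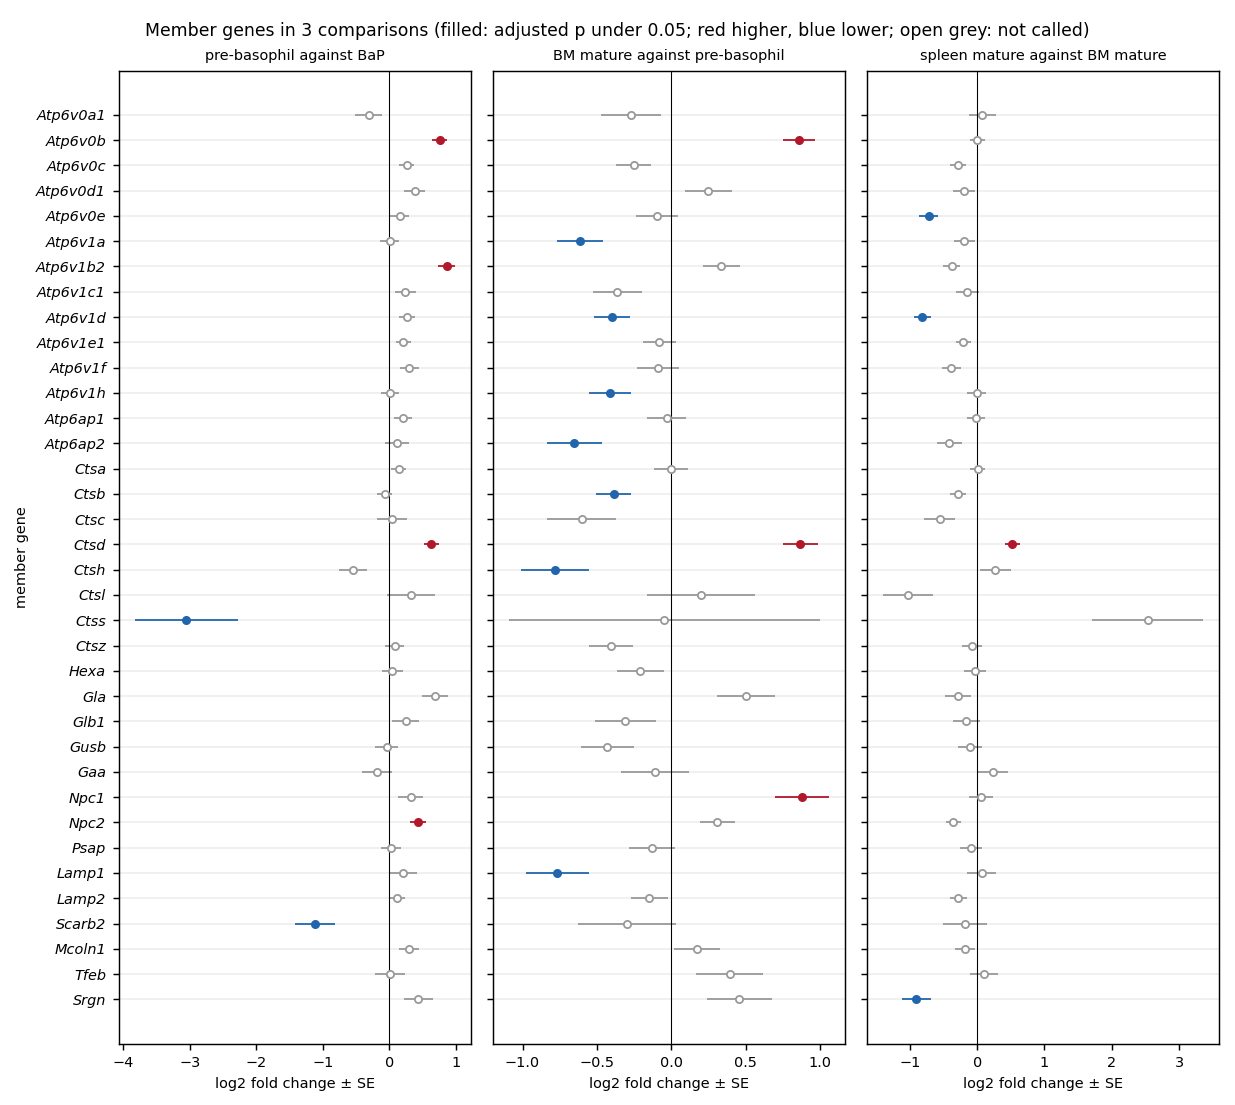
Log2 fold change of the 36 tested genes (points) ± SE (bars) in 3 comparisons, each coded as the later minus the earlier population. Filled points passed an adjusted p of 0.05 (red higher, blue lower), and open points did not. Each panel has its own axis range. Between pre-basophils and BM mature basophils Ctsd, Atp6v0b and Npc1 lie near 0.9, and Atp6v1a, Atp6ap2, Lamp1 and Ctsh lie between -0.8 and -0.6.

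From BM to spleen mature basophils, Ctsd was higher in the spleen, and Srgn, Atp6v1d and Atp6v0e were lower. These 4 of 36 genes passed in edgeR, against 7.83% of all tested genes (3.16% higher and 4.67% lower). The median log2 fold change of the 36 genes was -0.17, against 0.01 over all tested genes. All 3 spleen libraries lay below all 3 BM mature libraries for 14 of the 36 genes and above them for 2, against 17.1% and 16.6% of all tested genes.

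Ctsd was at 1246, 1442 and 1622 CPM in spleen mature basophils, above each BM mature library, and rose 1.44-fold (0.53 ± 0.12, edgeR adjusted p = 0.0190). Srgn was at 6973, 4676 and 7130 CPM in the BM mature libraries and at 3128, 3644 and 3253 CPM in spleen mature basophils. The populations did not overlap, and Srgn fell by 0.91 ± 0.22 on the log2 scale (1.87-fold lower, edgeR adjusted p = 0.0249). In BaPs Srgn was at 4293, 3563 and 2249 CPM and in pre-basophils at 5016, 3820 and 4845 CPM, and neither step within the bone marrow was called (edgeR adjusted p = 0.246 and 0.136).

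Atp6v1d was at 28.8, 25.6 and 25.4 CPM in the spleen against 46.2 to 47.3 CPM in the BM mature libraries, and fell by 0.81 ± 0.12 on the log2 scale (1.76-fold lower, edgeR adjusted p = 0.00294). It passed under all 13 alternative settings. Atp6v0e, a small V0 subunit, was at 114, 110 and 135 CPM in the BM mature libraries and at 77.9, 72.8 and 67.3 CPM in the spleen (-0.72 ± 0.14, edgeR adjusted p = 0.0120). Both genes were lower in each spleen library than in any BM mature library. Atp6v0b did not move with them, at 357, 354 and 382 CPM in the spleen and was not called.

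Ctss was again the gene with the largest log2 value, 2.53 ± 0.83, from 0.637, 1.002 and 0.749 CPM in the BM mature libraries to 7.68, 4.29 and 2.39 CPM in the spleen, without passing (edgeR adjusted p = 0.0778). It rested on 10 reads in BM mature basophils and 92 in the spleen. The 10 B cell markers summed to 380, 338 and 230 CPM in spleen replicates 1 to 3 and to 49.3 to 62.5 CPM in the BM mature libraries, and the library with most of them also had most Ctss. The part of B cells in the level of Ctss was not tested. The 10 monocyte and dendritic cell markers summed to 202 to 232 CPM in the spleen and 207 to 244 CPM in the BM mature libraries.

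The call of Ctsd was lost without BM mature replicate 1 (0.44, adjusted p = 0.106), spleen mature replicate 2 (0.53, adjusted p = 0.0544) or spleen mature replicate 3 (0.43, adjusted p = 0.0884). Srgn was lost when any library other than BM mature replicate 2 was left out (-0.97 to -0.80, adjusted p from 0.0593 to 0.103). Atp6v0e was lost without BM mature replicate 3 (-0.62, adjusted p = 0.0547) or spleen mature replicate 3 (-0.66, adjusted p = 0.0683).

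Ratios of read counts within a library do not depend on how libraries are scaled. The 3 ratios given here were chosen after the values had been seen and are descriptions. The ratio of Ctsd to Ctsb averaged 4.51 ± 0.401 (SD, n = 3) for the BaP libraries and 7.40 ± 1.12 for the pre-basophil libraries. It averaged 17.5 ± 1.89 for the BM mature and 30.5 ± 4.05 for the spleen libraries. No library of a population overlapped with a library of the next, and BaP replicate 3, at 4.48, lay between BaP replicates 1 and 2. The ratio of Atp6v0b to Atp6v1a, a ring subunit against a catalytic subunit of the same pump, was 3.07 ± 0.404, 5.14 ± 0.623, 14.2 ± 0.656 and 16.5 ± 2.20. Its values in BM mature basophils (13.6 to 14.9) and in the spleen (14.2 to 18.6) overlapped. BaP replicate 3 was the highest of its population at 3.52, against 2.74 and 2.95. The ratio of Srgn to Ctsd went from 6.34 ± 1.67 in BM mature basophils to 2.35 ± 0.295 in the spleen, and its values in the 3 bone marrow populations overlapped. BaP replicate 3, at 6.16, gave the overlap of BaPs with the other bone marrow populations, since BaP replicates 1 and 2, at 12.7 and 9.98, lay above all of their libraries.

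**Figure D4:**
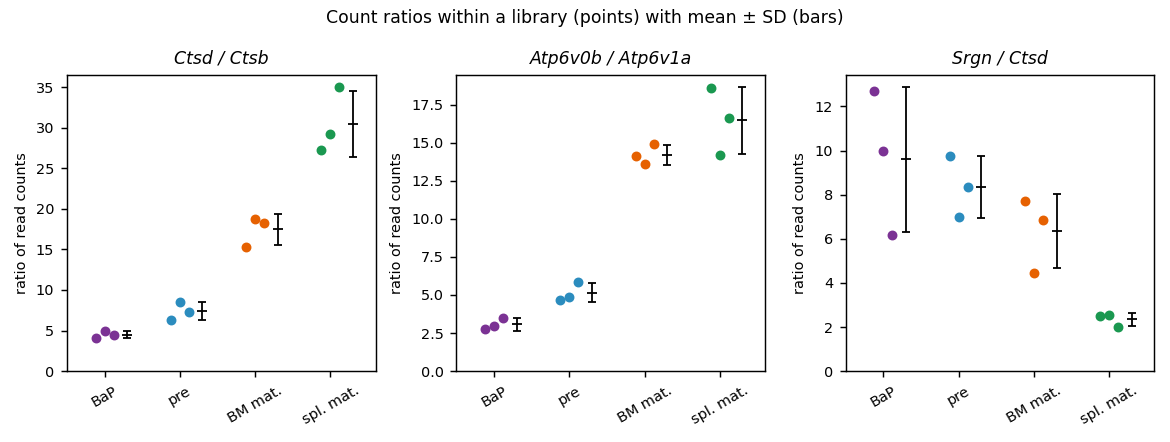
Ratio of read counts within each library (points) with the mean ± SD of each population (bars, n = 3) for Ctsd over Ctsb, Atp6v0b over Atp6v1a and Srgn over Ctsd. Each axis starts at 0. The first ratio separates all 4 populations, the middle ratio separates BaPs, pre-basophils and mature basophils, and the last separates the spleen from the bone marrow.

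The 20 genes called at no step came from every role but the granule proteoglycan. Hexa, Glb1, Gusb and Gaa, which encode lysosomal glycosidases, and Psap, the precursor of the saposins that assist lipid breakdown, stayed within log2 values of -0.43 to 0.25 at each of the 3 steps. Hexa ran from 62.7 to 102 CPM over the 12 libraries and Psap from 89.3 to 148 CPM, with BaP replicate 3 lowest for Hexa and highest for Psap. Gaa, acid alpha-glucosidase, ran from 19.2 to 39.7 CPM, with both ends in BaPs. Ctsl, cathepsin L, varied within populations, from 14.3 to 38.5 CPM in the BM mature libraries. Atp6v1f, the most abundant V1 gene per kilobase, was at 84 to 123 CPM in the spleen and 120 to 138 CPM in the BM mature libraries (-0.38 ± 0.14, edgeR adjusted p = 0.114).

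Other genes of the same pathways were taken from lists of 161 further symbols, of which 140 were tested. From pre-basophils to BM mature basophils 13 of them were called higher and 18 lower (9.29% and 12.9%, against 11.0% and 16.3% of all tested genes). From BaPs to pre-basophils 10 were called higher and 2 lower (7.14% and 1.43%, against 4.29% and 2.79%), and from BM to spleen mature basophils 7 and 14 (5% and 10%, against 3.16% and 4.67%). Of 11 tested pump genes outside the set, 3 were called higher (27.3%) and 0 lower from BaPs to pre-basophils. To BM mature basophils 2 were called higher and 1 lower (18.2% and 9.09%), and to the spleen again 2 and 1. Dmxl2, a rabconnectin that helps assemble the pump, averaged 17.4 ± 0.565 CPM (SD, n = 3) in the BaP and 25.9 ± 2.12 CPM in the pre-basophil libraries, against 110 ± 7.17 CPM in BM mature and 198 ± 25.8 CPM in spleen libraries. It rose 4.21-fold from pre-basophils to BM mature basophils (edgeR adjusted p = 7.83e-07) and 1.80-fold to the spleen (adjusted p = 0.00221). Tcirg1, the a3 subunit used in osteoclasts, rose 1.78-fold from BM mature basophils to the spleen (edgeR adjusted p = 0.0178). Oxr1 was 1.62-fold higher in pre-basophils than in BaPs (edgeR adjusted p = 0.0149) and 1.53-fold lower in the spleen than in BM mature basophils (adjusted p = 0.0262).

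Among 8 other cathepsins and inhibitors tested, 1 was called higher from pre-basophils to BM mature basophils (12.5%) and 2 lower (25%). Ctse, an aspartic protease like Ctsd, rose 2.10-fold in BM mature basophils against pre-basophils (edgeR adjusted p = 0.000142). Ctsg, a serine protease of primary granules, was 11-fold lower (from 1294 ± 161 to 118 ± 36.6 CPM, edgeR adjusted p = 1.69e-05), and Cst7 (cystatin F, an inhibitor of cysteine cathepsins) was 2.21-fold lower (adjusted p = 0.00139). Of 28 other acid hydrolases tested, 2 were called higher at this step (7.14%) and 6 lower (21.4%). Of all tested genes, 11.0% were called higher and 16.3% lower. The hydrolases called higher were Sgsh (3.53-fold, edgeR adjusted p = 0.00464) and Ids (1.99-fold, adjusted p = 0.00666), and Arsb and Aga were among those lower. Of 18 other lysosomal membrane genes, Cln3 (1.82-fold) and Laptm4a (1.32-fold) were called higher (11.1%) and 0 lower. Of 15 tested transcription factors and mTORC1 platform genes, Sqstm1 was called higher (1.58-fold) and Rraga lower (1.98-fold), 6.67% each way. Tfe3, a relative of Tfeb, was at 20.1 ± 1.82 and 21.3 ± 3.002 CPM and was not called.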

How the data were processed

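Bulk RNA-seq libraries were made from sorted cells by poly(A) capture and TAS-Seq amplification. The deposited values are raw counts of reads for each gene, made by the authors with Cutadapt 3.4 and Bowtie2 2.4.2 against reference RNA. The paper's methods name GRCm38 release 101, whereas the submitters' processing notes list GRCm39. Strand use and the treatment of multiply mapped reads are not given in the sources used here, and no molecular identifiers are mentioned, so PCR copies count as reads. Gene positions and lengths came from GENCODE M21 (GRCm38).

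Counts were analysed with edgeR 4.0.16 (R 4.3.3): filterByExpr, TMM scaling, 1 quasi-likelihood fit of 12 libraries, F tests and Benjamini-Hochberg adjustment over 15083 genes. Genes with an adjusted p under 0.05 were called. A count of 0 allows 3 reads, 0.290 to 0.955 CPM by library, for counting error only. No libraries of a population agreed within sampling noise (chi-square per degree of freedom 4.16 to 35.0). The steps were tested on simulated counts.

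Same-numbered libraries deviated together within the bone marrow (correlation of deviations from the population means 0.125 to 0.262 for BaP with pre-basophil and 0.138 to 0.223 for pre-basophil with BM mature), so the numbers were taken to pair these libraries. Pairs with different numbers ran from -0.206 to 0.0758. Replicate 3 also had the largest total of each population, and the part of depth was not tested. The main fit held the population only, and the pairing entered as an alternative. Spleen and BM mature pairs stayed at 0.0076 to 0.0254. Alternatives were DESeq2 1.42.0 (size factors or test), library size alone, the repeated scaling of TCC rebuilt with 3 rounds, no count filter, a replicate block, a fit of the compared populations alone, and leaving out each library.

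The gene set and lists were chosen with earlier results of these data known. Genes given in full were Srgn, Tfeb, Mcoln1, the most abundant gene per kilobase of each role, and up to 4 called genes with the largest change in each direction of each comparison at 10 CPM or more. Ctsb, Atp6v1h, Ctss, Ctsc, Ctsz and Gla were added after their values were seen. The paper's package TCC and proteins were not used here.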

Additional observations from a re-analysis of the deposited data

How the results depend on the processing

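The number of genes of the set called among the 4 populations stayed between 20 and 30 in all alternatives. From pre-basophils to BM mature basophils, 10 genes became 19 with library size alone and 21 when only these populations were fitted, and leaving out a library gave 5 to 10. From BaPs to pre-basophils, 6 became 3 with only these populations, and leaving out a library gave 3 to 7. From BM to spleen mature basophils, 4 became 7 without the count filter and 10 with only these populations, and leaving out a library gave 1 to 4. The cause of these shifts was not tested. No called gene changed sign in any setting. Among uncalled genes, 16 of 30 from BaPs to pre-basophils, 5 of 26 from pre-basophils to BM mature basophils and 11 of 32 to the spleen changed sign in some setting, each at no more than 0.25 from 0 on the log2 scale in the fit reported above. Some of these had a change of at least its SE. From BaPs to pre-basophils they were Atp6v0e, Glb1 and Ctsa. Atp6v0e was at -0.0333 with library size alone and -0.0017 without BaP replicate 3, with a range up to 0.275 over left-out libraries. Glb1 was at -0.0312 without BaP replicate 3, and the lowest value of Ctsa was -0.0519. From pre-basophils to BM mature basophils it was Mcoln1 (-0.0473 with library size alone).

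The replicate block gave 12, 7 and 5 called genes in the 3 comparisons. For the spleen, where the numbers do not pair the libraries, it added Ctsl. Beyond Gla, Ctsc, Ctsz and Ctsl it changed no call in the pairwise comparisons. Populations of 3 libraries and low counts (Ctss, Lgmn) limit what could be called, and 12 of 48 named changes were smaller than their SE and never passed.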

Other observations

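Serglycin carries sugar chains of the chondroitin and heparan type. Of 24 tested genes of their synthesis, 2 were called higher and 2 lower from pre-basophils to BM mature basophils in edgeR (8.33% each, against 11.0% and 16.3% of all tested genes). From BaPs to pre-basophils 1 was called higher and 0 lower (4.17%, against 4.29% of all tested genes higher), and to the spleen 3 higher and 1 lower (12.5% and 4.17%, against 3.16% and 4.67%). Chst15, which adds the sulfate that makes chondroitin sulfate E, rose 2.13-fold from BaPs to pre-basophils (58.9 ± 9.53 to 125 ± 16.4 CPM, SD, n = 3, edgeR adjusted p = 0.000517; 1.95-fold without BaP replicate 3, adjusted p = 6.18e-05) and 1.46-fold to BM mature basophils (182 ± 10.7 CPM, adjusted p = 0.00724). Csgalnact2, which starts or extends chondroitin chains, was 1.89-fold lower in BM mature basophils (231 ± 24.9 to 123 ± 18.5 CPM, edgeR adjusted p = 0.0142). Ndst1, which modifies heparan chains, rose 1.38-fold at that step (edgeR adjusted p = 0.0460) and 1.70-fold to the spleen (adjusted p = 0.0127), where Srgn itself was lower.

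Among 25 tested genes of lysosome-related organelle biogenesis, 1 was called higher and 1 lower from BaPs to pre-basophils (4% each, against 4.29% and 2.79% of all tested genes). To BM mature basophils it was 2 and 2 (8% each, against 11.0% and 16.3%). To the spleen it was 1 and 3 (4% and 12%, against 3.16% and 4.67%). Lyst, which is mutated in Chediak-Higashi syndrome with its giant granules, rose 1.67-fold from BaPs to pre-basophils (101.3 ± 34.6 to 170 ± 7.42 CPM, edgeR adjusted p = 0.0263, or 2.06-fold without BaP replicate 3, adjusted p = 1.37e-05). It rose 2.19-fold to BM mature basophils (373 ± 26.8 CPM, adjusted p = 0.000404). Rab38 was 3.02-fold lower in pre-basophils than in BaPs (edgeR adjusted p = 0.0431). Dtnbp1 was 1.34-fold lower at the step to BM mature basophils (adjusted p = 0.0412) and 1.53-fold lower at the step to the spleen (adjusted p = 0.0231). Ap3b1, an adaptor subunit that sorts cargo to such organelles, was 1.5-fold lower in the spleen than in BM mature basophils (edgeR adjusted p = 0.00927), where Hps5 was 1.56-fold higher (adjusted p = 0.0486). Gnptg, a subunit of the enzyme that makes the mannose 6-phosphate sorting tag, was 1.95-fold lower in the spleen than in BM mature basophils (edgeR adjusted p = 0.0118).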
